A study of Mus musculus with 10 samples.

Results

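The 28 genes of sterol synthesis and of its control by the sterol regulatory element-binding proteins (SREBPs) were followed in mouse C2C12 myoblasts after transfection of a miR-27a-3p mimic. The genes were taken from a list of names that was chosen with earlier results of these data known. Each was represented by its brightest probe. All 28 were on the array, out of 34650 named genes and transcripts, and 27 were bright enough to be tested, out of 13128. C2C12 is an immortalised myoblast line from mouse skeletal muscle, and a mimic is a synthetic double-stranded RNA that supplies a mature microRNA to the cell. The groups were cells given the miR-27a-3p mimic (6 samples) and cells given a scrambled sequence (4 samples), both at 150 nM by lipid transfection. Both were grown in high-glucose medium with 10% fetal bovine serum and collected after 72 h. The labels put the transfection efficiency at 60%, so each sample mixes cells that did and did not take up the RNA. No cells without transfection were analysed here.

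The 10 deposited files did not behave as 10 separate arrays. They came from 5 positions of 1 slide, each scanned 2 times, so the files of a position were averaged, leaving n = 3 arrays for the mimic and n = 2 for the scrambled sequence. Signals were taken as log2 and scaled to the 75th percentile of the probes detected in all files (the level), and differences are mimic minus scrambled on that scale, with their SE. Each file held 59305 spots that were not controls, of which 27% to 35.3% were well above background. All p-values rest on the spread among 5 arrays, and this spread may be technical. The scrambled arrays stood apart from each other: the SD of their log2 differences over all genes was 0.57, against 0.32 to 0.44 for pairs of mimic arrays. The difference of each sterol gene is therefore also given against scrambled array 1 and scrambled array 2 alone, as values "in turn".

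The label of the cells was checked on marker genes. Of 6 myoblast markers, Myod1, Des, Cdh15, Vcam1 and Itga7 were well above background in all 10 files and Myf5 in 1. The 5 measured had a median difference of -0.70, and 0 passed the test. At an unadjusted limma p under 0.05, 4 of the 5 were lower (80%, against 14.1% of all genes), while Vcam1 was at 0.24. Of 14 markers of 5 other cell types (leukocytes, endothelium, epithelium, adipocytes and hepatocytes), 11 were above background in no file, among them Ptprc, Pecam1, Epcam, Adipoq and Alb, while Ttr was above it in 1 file and Cd68 and Kdr in all 10. Markers of differentiating muscle moved with the treatment, and 6 of 7 fell by limma. The mean level of the 7 ranged from -0.34 to 0.31 on the mimic arrays and from 1.79 to 1.92 on the scrambled arrays. The lowest of the mimic means was on array 3, where Ckm was at -6.27, against -2.25 and -2.43 on mimic arrays 1 and 2. Ckm was above background in 4 of the 6 mimic files and did not pass. The part of the shift in these muscle markers in the sterol results below was not tested. In RNA from whole cultures, fewer cells of a kind and less RNA per cell cannot be told apart.

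Cholesterol is built from acetyl-CoA through mevalonate and the isoprenoid farnesyl diphosphate to squalene, which is closed into the ring of lanosterol and then trimmed to cholesterol. Transcription of these enzymes is driven mainly by SREBP-2 (Srebf2), while SREBP-1 (Srebf1) acts more on fatty acid synthesis. The precursors of both lie in the endoplasmic reticulum bound to the escort protein Scap. When sterols are plentiful, the Insig proteins hold Scap there. When sterols fall, Scap carries the precursor to the Golgi, where the proteases encoded by Mbtps1 and Mbtps2 release the active factor. Insig1 is itself a classical SREBP target, so its transcript is widely read as an output of the pathway.

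The sequence supplied and the promoters of 3 of the genes are shown first. The mature microRNA is given with its seed, bases 2 to 8, in capitals, beside the paralog that shares this seed (RefSeq, GRCm38.p6, chr8:84208727-84208747 and chr13:63300760-63300780, both on the + strand). The labels do not give the chemistry of the mimic or the scrambled sequence.
mmu-miR-27a-3p: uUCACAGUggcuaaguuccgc
mmu-miR-27b-3p: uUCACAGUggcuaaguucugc
Their seeds are identical, and the table holds 2 mature microRNAs with this seed.

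SREBPs bind the sterol regulatory element and act together with NF-Y and Sp1, which bind the NF-Y box and the GC box. The 250 bases upstream of 3 start sites are shown because Hmgcs1 holds the sterol element, Insig1 had the fitted difference of largest size and Mvk has several NF-Y boxes (RefSeq, GRCm38.p6, chr13:119690101-119690350, chr5:28071162-28071411 and chr5:114444019-114444268, all on the + strand). Capitals mark TCACNCCAC (a core of the sterol regulatory element), CCAAT (NF-Y box) and GGGCGG (GC box), on either strand, so that ATTGG and CCGCCC are matches on the other strand. No marked matches overlap.
Hmgcs1: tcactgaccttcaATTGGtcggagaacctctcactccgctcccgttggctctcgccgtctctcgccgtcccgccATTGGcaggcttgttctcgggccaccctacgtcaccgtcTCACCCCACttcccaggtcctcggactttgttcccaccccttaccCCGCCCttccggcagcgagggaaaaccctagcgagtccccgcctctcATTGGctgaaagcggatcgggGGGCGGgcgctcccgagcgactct
Insig1: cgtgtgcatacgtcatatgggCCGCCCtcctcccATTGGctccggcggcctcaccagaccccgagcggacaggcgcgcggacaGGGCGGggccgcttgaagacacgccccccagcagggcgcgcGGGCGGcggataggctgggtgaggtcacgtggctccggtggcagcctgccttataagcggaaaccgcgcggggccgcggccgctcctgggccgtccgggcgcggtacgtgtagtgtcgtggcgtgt
Mvk: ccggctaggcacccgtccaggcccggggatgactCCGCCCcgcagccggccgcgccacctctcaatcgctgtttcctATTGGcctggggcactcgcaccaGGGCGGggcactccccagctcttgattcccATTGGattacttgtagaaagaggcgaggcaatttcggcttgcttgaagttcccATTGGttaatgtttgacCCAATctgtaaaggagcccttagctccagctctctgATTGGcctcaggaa
These windows hold 1 match to the sterol element core, 3 NF-Y boxes and 2 GC boxes in Hmgcs1. The counts are 0, 1 and 3 in Insig1, and 0, 5 and 2 in Mvk. A promoter was listed for 23 of the 28 genes. Fdft1, the gene called below, had none, nor did Fdps, Sqle, Stard4 and Npc1. In windows from 250 bases before to 50 after the start site, 19 of these 23 held an NF-Y box, against 41.1% of 27025 genes, and 20 held a GC box, against 38.2%. The sterol element core was found in 1 of 23, Hmgcs1, and in 1.44% of all genes. Of the 11 genes with every mimic array below both scrambled arrays, 9 had a listed promoter, and 9 of these held an NF-Y box and 9 a GC box. Of the 12 genes with overlapping groups, 9 had a promoter, with 7 and 7. The 4 genes with every mimic array above all had one, with 3 and 4. These matches are letters in a window, not binding sites. For the sterol element only the letters TCACNCCAC were searched, so a window without a match was not shown to lack the element.

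One of the 27 genes tested passed the threshold, and most of the others had negative differences that did not. Fdft1 (farnesyl-diphosphate farnesyltransferase, or squalene synthase), which joins a pair of farnesyl diphosphates into squalene, fell to 0.448 of its scrambled level. The 26 other genes did not pass (limma, Benjamini-Hochberg adjustment over all genes, threshold 0.05), and 0 rose. Among all 13128 genes, 5.11% passed, with 308 lower (2.35%) and 363 higher (2.77%), and the 1 of 27 here is 3.70%. With the scaling percentile taken over all probes the split over all genes was 232 lower and 497 higher, the median difference of all genes moved from -0.05 to 0.11, and Tm7sf2 was called higher (adjusted p = 0.0480).

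The differences of the 27 genes had a median of -0.39, against -0.05 over all genes. Of these 27, 20 were negative and 7 positive, against 7179 and 5949 of all 13128 genes. With the percentile over all probes, 15 were negative and the median was -0.23, which is 0.34 under that of all genes, as in the main scaling. At an unadjusted p under 0.05, 11 were lower (40.7%, against 14.1% of all genes) and 2 higher (7.41%, against 11.2%). All 3 mimic arrays lay below both scrambled arrays for 11 genes (40.7%, against 25.7% of all genes) and above both for 4 (14.8%, against 19.9%), and for 12 the groups overlapped. Probes differed in how often they were above background. The 18 sterol genes above it in all 10 files had a median of -0.06, against -0.04 for all genes so measured. At an unadjusted p under 0.05, 6 of these 18 were lower (33.3%, against 13.2% of all genes so measured), among them Fdft1, Acat2 and Srebf2. The 9 above background in 4 to 9 files had a median of -0.71, against -0.13. This split is not independent of the differences, since a gene that is lower with the mimic can drop below background there, as Insig1 and Mvd did in part of the mimic files. For those 9, part of the difference rests on signals not above background, so its size is uncertain.

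**Figure D1:**
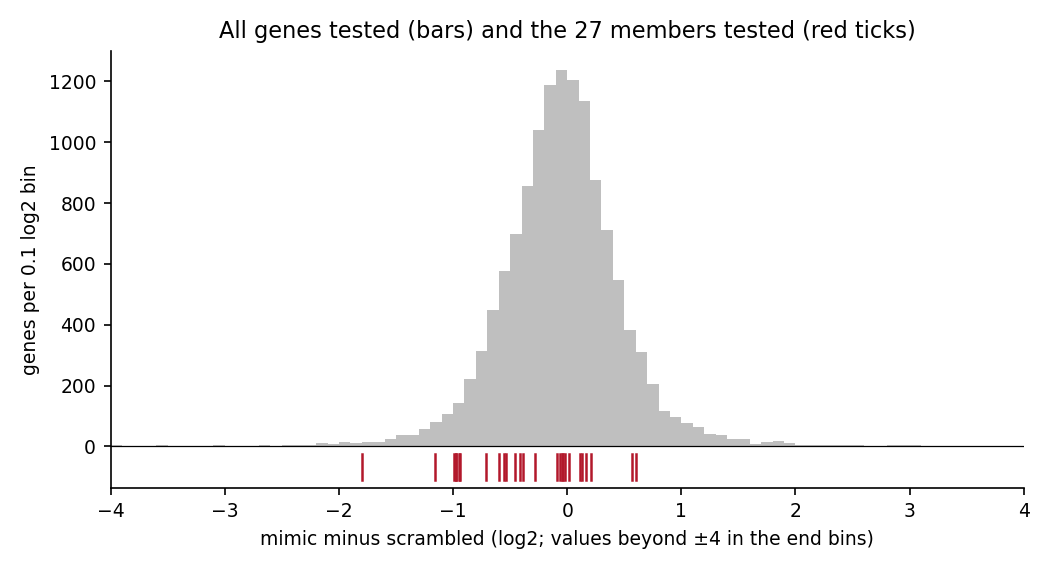
Number of genes (y) by fitted difference, mimic minus scrambled, in log2 units (x, bins of 0.1), with grey bars for the 13128 genes tested and red ticks for the 27 sterol and SREBP genes. The ticks run from -1.80 to 0.60 around a median of -0.39, while the bars centre on -0.05.

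The squalene steps held both the called gene and its neighbour in the pathway, which was near 0. The level of Fdft1 was -1.88, -1.85 and -1.86 on mimic arrays 1, 2 and 3, and -0.86 and -0.55 on scrambled arrays 1 and 2. The mimic arrays were tightly grouped and all below both scrambled arrays, and no single file crossed over: the 6 mimic files ran from -1.999 to -1.71 and the 4 scrambled files from -0.92 to -0.54. The difference was -1.16 ± 0.15 (adjusted p = 0.0174, limma), with a 95% interval from -1.53 to -0.78. Against scrambled array 1 alone it was -1.002 and against scrambled array 2 alone -1.31. The probe has 60 bases and the files place its ends on mm9 at chr14:63765750-63769990, a span of 4241 bases, wider than the probe itself. A second Fdft1 probe was above background in 1 file and was not tested, so the fall rests on 1 probe. The sign held in 28 of 28 alternatives and the call in 24. It was lost when mimic array 1, 2 or 3 was left out (adjusted p = 0.114, 0.0916 and 0.0779) and with no filter on dim probes (adjusted p = 0.202), while the difference stayed between -1.31 and -0.999.

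Sqle, squalene epoxidase, which acts on the product of Fdft1, was at -0.06, 0.07 and 0.22 on the mimic arrays, against 0.02 and 0.10 on the scrambled pair. The groups overlapped, and the difference was 0.01 ± 0.15 (in turn 0.05 and -0.03, adjusted p = 0.965), with a 95% interval from -0.35 to 0.38.

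Lss, lanosterol synthase, which closes the ring, was at -5.24, -5.47 and -5.84 on the mimic arrays, against -4.77 and -4.32 on the scrambled pair. The arrays did not overlap, but the probe was above background in only 2 of the 6 mimic files and 3 of the 4 scrambled ones. The difference of -0.97 ± 0.24 missed the threshold (in turn -0.75 and -1.20, limma adjusted p = 0.0772). It passed in the files of the first scan alone (adjusted p = 0.0481) but not in those of the second scan of the same arrays (adjusted p = 0.174).

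**Figure D2:**
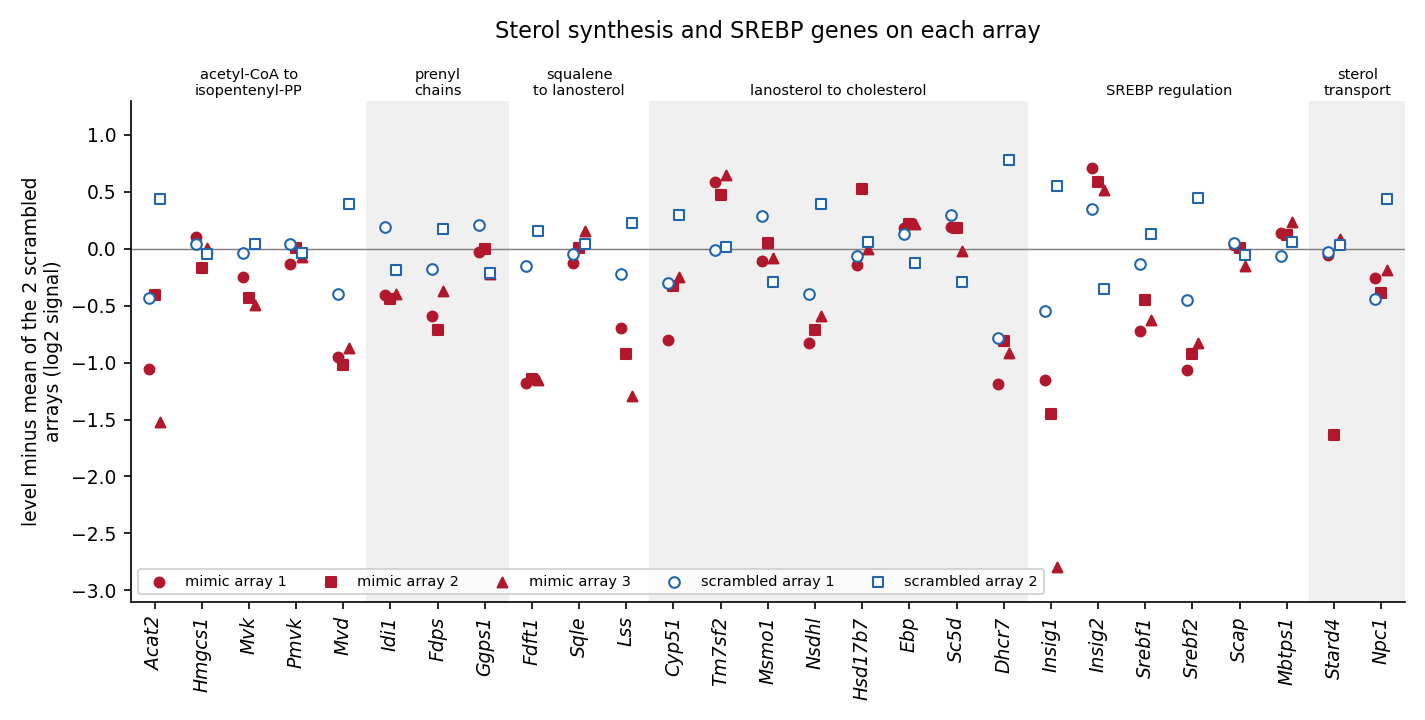
Level of each of the 27 genes on each array minus the mean of the 2 scrambled arrays for that gene (y, log2 signal), with filled red symbols for mimic arrays 1 to 3 and open blue symbols for scrambled arrays 1 and 2, genes ordered by pathway step (x). The 3 Fdft1 mimic points coincide below both scrambled points, while Insig1, Acat2 and Stard4 scatter widely between the mimic arrays.

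Of the 5 enzymes that make isopentenyl diphosphate from acetyl-CoA, 0 passed the threshold. All 5 differences were negative, with a median of -0.39. At an unadjusted limma p under 0.05, 3 of the 5 were lower (60%, against 14.1% of all genes). The list was chosen with earlier results known, so this share was not tested. With the percentile over all probes, Hmgcs1 and Pmvk turned positive (0.14 and 0.09). Acat2, the cytosolic thiolase that condenses acetyl-CoA, was at -3.63, -2.99 and -4.10 on the mimic arrays, against -3.01 and -2.14 on the scrambled pair. Mimic array 2 lay level with scrambled array 1, so the groups overlapped, and the difference was -0.995 ± 0.40 (in turn -0.56 and -1.43, adjusted p = 0.191).

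Hmgcs1, the cytosolic HMG-CoA synthase and the gene whose promoter carries the sterol element above, was at -0.29, -0.56 and -0.38 on the mimic arrays, against -0.35 and -0.43 on the scrambled pair. The groups overlapped around a difference of -0.02 ± 0.15 (in turn -0.06 and 0.02, adjusted p = 0.948), with a 95% interval from -0.38 to 0.35. The deposited annotation places this probe on an unlocalised fragment of chromosome 13.

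Mvk, mevalonate kinase, was at -1.69, -1.88 and -1.94 on the mimic arrays, against -1.48 and -1.41 on the scrambled pair, without overlap. Its difference was -0.39 ± 0.15 (in turn -0.35 and -0.43, adjusted p = 0.173), and a second, dimmer Mvk probe, tested beside all 16718 probes, gave -0.90 ± 0.34 (adjusted p = 0.177). Pmvk, phosphomevalonate kinase, was at -0.07 ± 0.13 (in turn -0.11 and -0.03, adjusted p = 0.770), with overlapping groups and -0.30 ± 0.17 on its second probe. Mvd, the decarboxylase that yields isopentenyl diphosphate, was at -4.45, -4.52 and -4.37 on the mimic arrays, against -3.89 and -3.104 on the scrambled pair. All 3 mimic arrays lay below both scrambled arrays, and the difference of -0.95 ± 0.25 missed the threshold (in turn -0.56 and -1.34, adjusted p = 0.0904). The probe was above background in 3 of the 6 mimic files and 4 of the 4 scrambled ones, so its difference rests partly on signals not above background.

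The 3 enzymes that isomerise or join isoprenoid units were at -0.42 to -0.56 where the arrays separated and near 0 where they did not. Of these 3, 0 passed. Idi1, the isomerase of isopentenyl diphosphate, was at -1.89, -1.92 and -1.88 on the mimic arrays, against -1.29 and -1.67 on the scrambled pair. Here scrambled array 1 was the higher one, unlike for most of these genes, and the difference was -0.42 ± 0.16 (in turn -0.60 and -0.23, adjusted p = 0.185). Fdps, farnesyl diphosphate synthase, which makes the substrate of Fdft1, was at -0.39, -0.51 and -0.17 on the mimic arrays, against 0.03 and 0.38 on the scrambled pair. The groups did not overlap and the difference was -0.56 ± 0.18 (in turn -0.38 and -0.73, adjusted p = 0.138). Ggps1, which extends farnesyl to geranylgeranyl diphosphate, was at -0.09 ± 0.18 (in turn -0.30 and 0.13, adjusted p = 0.783), and turned to 0.07 with the percentile over all probes and 0.01 with quantile normalization. Its other probes were at -0.23 ± 0.15 and -0.05 ± 0.25.

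Of the 8 enzymes from lanosterol to cholesterol, 4 were negative and 4 positive in the main scaling, with a median of 0.03, and 0 passed. Cyp51, the lanosterol demethylase, was at -0.46 ± 0.26 (in turn -0.16 and -0.75, adjusted p = 0.308) with overlapping groups. Tm7sf2, a sterol reductase of the next step, was at -2.44, -2.54 and -2.37 on the mimic arrays, against -3.03 and -3.004 on the scrambled pair. The mimic arrays were all above both scrambled arrays, and by nearly the same margin: 0.58 against scrambled array 1 and 0.55 against scrambled array 2. The difference of 0.57 ± 0.14 missed the threshold in the main scaling (adjusted p = 0.0738).

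Msmo1, the methyl sterol oxidase, was at -0.05 ± 0.21 (in turn -0.34 and 0.24, adjusted p = 0.899), and its sign turned with normexp (0.08) and the percentile over all probes (0.11). Nsdhl, a dehydrogenase that acts with Msmo1 in removing methyl groups, was at -4.36, -4.24 and -4.12 on the mimic arrays, against -3.92 and -3.14 on the scrambled pair. The groups did not overlap, and the difference of -0.71 ± 0.25 (adjusted p = 0.158) went from -0.32 against scrambled array 1 to -1.10 against scrambled array 2. Hsd17b7, the ketoreductase of the same step, was at 0.13 ± 0.23 (in turn 0.19 and 0.06, adjusted p = 0.741), while its second probe gave -0.28 ± 0.14.

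Ebp, a sterol isomerase, was at 0.20 ± 0.15 (in turn 0.08 and 0.33, adjusted p = 0.406), with all mimic arrays above both scrambled arrays, and Sc5d, a desaturase, at 0.11 ± 0.21 (in turn -0.18 and 0.41, adjusted p = 0.749), with overlap. Dhcr7, the reductase of 7-dehydrocholesterol, was at -4.60, -4.22 and -4.33 on the mimic arrays, against -4.20 and -2.63 on the scrambled pair. Scrambled array 2 alone set its size: the difference of -0.97 ± 0.45 (adjusted p = 0.236) was -0.19 against scrambled array 1 and -1.75 against scrambled array 2.

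**Figure D3:**
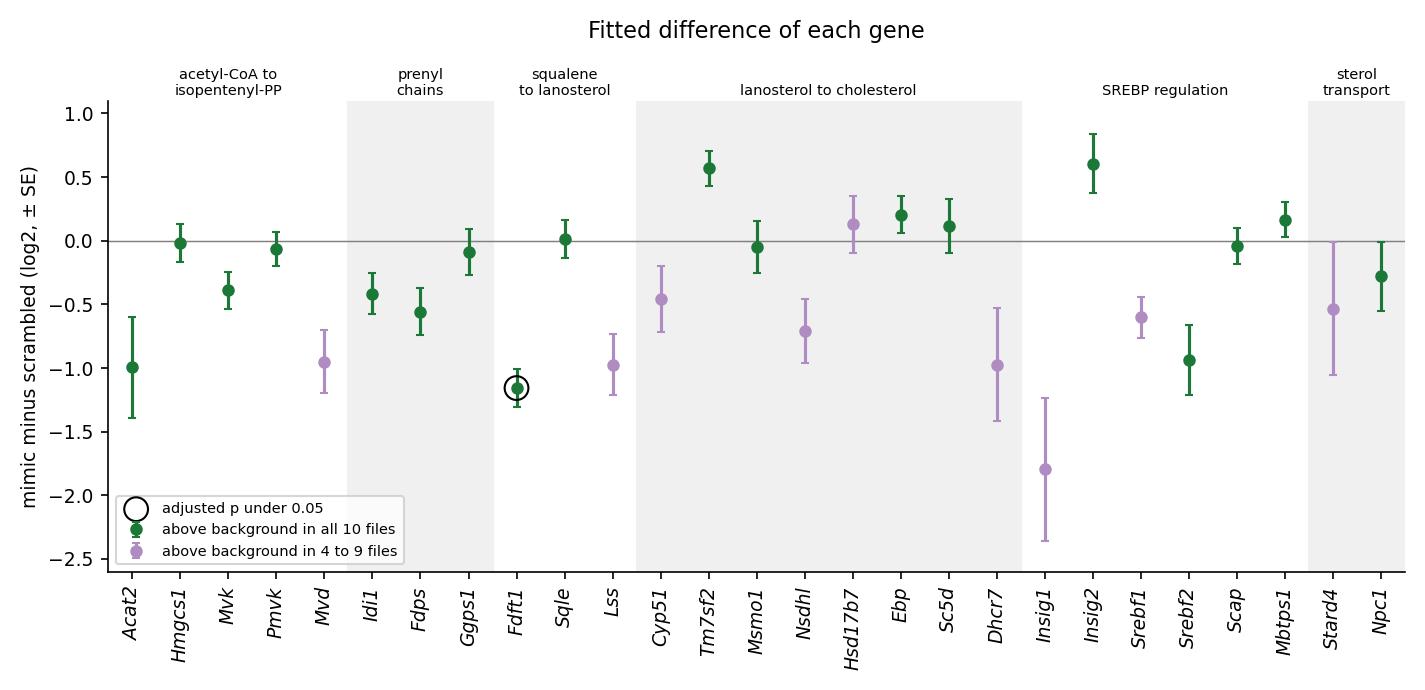
Fitted difference of each of the 27 genes, mimic minus scrambled (y, log2, bars ± SE, n = 3 and n = 2 arrays), ordered by pathway step (x), green for probes above background in all 10 files and purple for those above it in 4 to 9. The ring marks Fdft1 at -1.16, and 8 of the 9 purple points lie below 0.

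The regulators did not pass the test, and both SREBP genes and Insig1 were lower on every mimic array while Insig2 was higher. Of 7 regulators 6 were tested, with 4 negative and 2 positive differences and a median of -0.32. Srebf2, the gene of the main activator of sterol synthesis, was at -2.62, -2.49 and -2.39 on the mimic arrays, against -2.01 and -1.12 on the scrambled pair. The arrays did not overlap, but the scrambled arrays lay further apart than the mimic group lay from the nearer of them. The difference was -0.94 ± 0.28 (adjusted p = 0.112), with -0.49 against scrambled array 1 and -1.38 against scrambled array 2. It passed with scan as a fixed and position as a random block (adjusted p = 0.0331).

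Srebf1, whose products favour lipogenic genes, was at -4.42, -4.16 and -4.33 on the mimic arrays, against -3.83 and -3.57 on the scrambled pair. The groups did not overlap and the difference of -0.60 ± 0.16 missed the threshold (in turn -0.47 and -0.73, adjusted p = 0.0973), with the probe above background in 5 of the 6 mimic files and 4 of the 4 scrambled ones.

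Insig1, which retains Scap and is induced by SREBPs, had the fitted difference of largest size among the 27. Its level was -4.75, -5.05 and -6.39 on the mimic arrays, against -4.15 and -3.05 on the scrambled pair. Every mimic array was lower, but the probe was above background in 2 of the 6 mimic files and 4 of the 4 scrambled ones. The difference of -1.80 ± 0.56 (adjusted p = 0.127) rests partly on signals not above background, was -0.87 with normexp background correction, and ran from -1.24 against scrambled array 1 to -2.35 against scrambled array 2.

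Insig2, the paralog that also retains Scap, was at 0.15, 0.03 and -0.04 on the mimic arrays, against -0.20 and -0.91 on the scrambled pair. All mimic arrays were above both scrambled arrays, at 0.25 over scrambled array 1 and 0.96 over scrambled array 2. The difference was 0.60 ± 0.23 (adjusted p = 0.180), and a second probe gave 0.65 ± 0.17 (adjusted p = 0.0939).

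Scap, the escort of both SREBP precursors, was at -0.98, -0.999 and -1.16 on the mimic arrays, against -0.96 and -1.06 on the scrambled pair. The groups overlapped, with a difference of -0.04 ± 0.14 (in turn -0.09 and 0.02, adjusted p = 0.881) and a 95% interval from -0.39 to 0.31; the sign turned with the percentile over all probes (0.12). Mbtps1, the protease of the first cleavage, was at 0.16 ± 0.14 (in turn 0.23 and 0.10, adjusted p = 0.473), and its second probe had the opposite sign, -0.59 ± 0.20 (adjusted p = 0.153). Mbtps2, the protease of the second cleavage, was well above background in 1 of 6 mimic files and in 0 of 4 scrambled files, and it was not tested.

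The 2 genes of sterol transport were negative and did not pass. Stard4, a carrier of cholesterol between membranes, was at -0.53 ± 0.52 (in turn -0.51 and -0.56, adjusted p = 0.542), a value set by mimic array 2 at -5.46, and it was 0.02 without that array. Npc1, which exports cholesterol from lysosomes, was at -0.28 ± 0.27 (adjusted p = 0.537), with 0.16 against scrambled array 1 and -0.72 against scrambled array 2.

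The choice of scrambled array changed the size of these differences. Scrambled array 2 was the higher of the pair for 18 of the 27 genes, against 7008 of all 13128. The median gap was 0.13, against 0.04 over all genes. The mean level of the 27 genes was -2.42, -2.42 and -2.46 on the mimic arrays, against -2.17 and -1.94 on the scrambled pair. Their median difference was -0.30 against scrambled array 1 alone and -0.43 against scrambled array 2 alone, where all genes gave -0.03 and -0.08. Without scrambled array 1, 9 of the genes were called lower (Fdft1, Fdps, Lss, Mvd, Nsdhl, Dhcr7, Srebf1, Srebf2 and Npc1) and Insig2 and Tm7sf2 higher, in a fit that calls 4339 genes in all and assumes that the lone scrambled array varies like the mimic arrays. Without scrambled array 2, Fdft1 alone was called, among 561 genes.

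**Figure D4:**
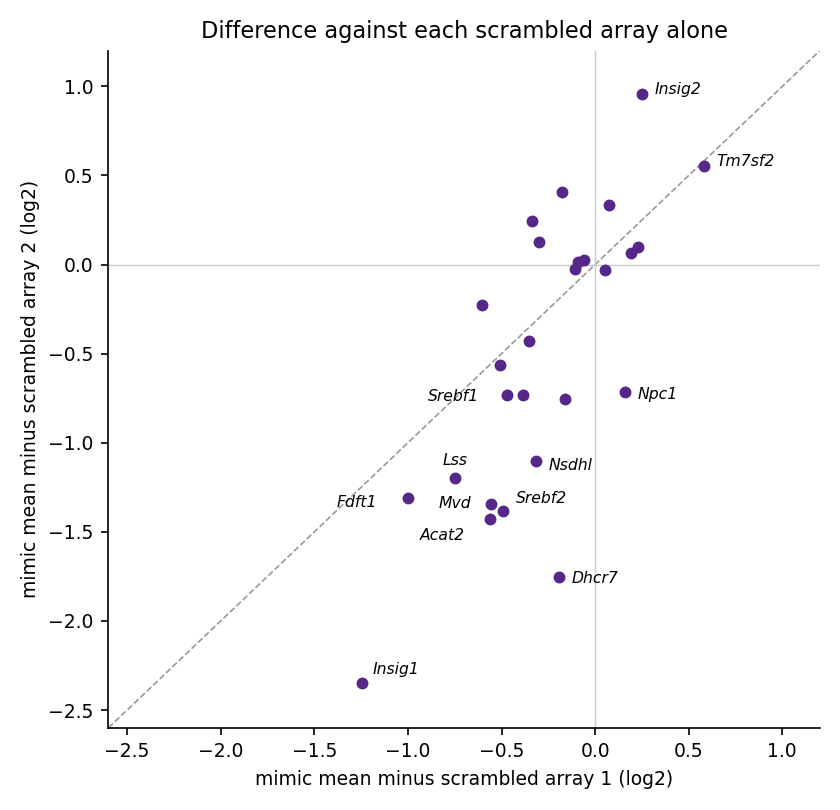
Mean of the mimic arrays minus scrambled array 1 (x) and minus scrambled array 2 (y), in log2 units, 1 point for each of the 27 genes, with the dashed line where both are equal; the axes share the mimic mean, so the points describe the size of the scrambled gap and are no independent check. Fdft1 (-1.002 and -1.31) and Tm7sf2 (0.58 and 0.55) lie near the line, and Dhcr7 (-0.19 and -1.75) and Npc1 (0.16 and -0.72) far below it.

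Genes joined to this pathway had list medians between -0.05 and 0.12, and 0 of the 48 tested in 4 lists passed the threshold. With scan as a fixed and position as a random block, 1457 of 13049 genes were called. The lists in the order below then held 1, 2, 0 and 1 calls, among 12, 11, 12 and 12 genes tested. With the percentile over all probes their medians were 0.11, 0.20, 0.28 and 0.18, where the median of all genes was 0.11. Of 15 lipogenic genes that SREBP-1 is known to control, 12 were tested, with 7 negative and 5 positive and a median of -0.05. The largest difference among them was that of Fads2, a fatty acid desaturase, at 0.73 ± 0.45 (adjusted p = 0.350), and it rested on 1 scrambled array, with 1.51 against scrambled array 1 and -0.05 against scrambled array 2. Of 13 genes on the branches from farnesyl diphosphate to other products, 11 were tested, with a median of 0.05. Pdss1, which makes the side chain of coenzyme Q, had the largest, at -0.60 ± 0.13 (in turn -0.68 and -0.53, adjusted p = 0.0639).

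The 13 of 14 tested genes for turnover and transport of the SREBP machinery had a median of 0.12. Erlin1, part of a complex that promotes degradation of membrane proteins in the endoplasmic reticulum, had the largest difference there, at 0.89 ± 0.37 (in turn 0.26 and 1.51, adjusted p = 0.201). The 12 of 14 tested genes of cholesterol trafficking and storage had a median of 0.02. Among them Lipa, the lysosomal lipase that frees cholesterol from its esters, was largest, at 0.57 ± 0.21 (in turn 0.86 and 0.29, adjusted p = 0.165). At an unadjusted p under 0.05, the 4 lists held 4 lower and 3 higher genes, against 14.1% and 11.2% of all genes.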

How the data were processed

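Total RNA was amplified, labelled with Cy3 and hybridised to 1-colour Agilent arrays, per the labels' protocols. Deposited scanner files give the intensity of each spot, linear, background-subtracted and detrended, per the file headers. The headers name Feature Extraction 12.0.0.7 and mm9 probe positions, the submitters' processing notes version 10.7.3.1, and which was run is not settled. The deposited value table, used as an alternative, is linear intensity that was not centred (column medians 188.9, 273.4, 256.6, 212.6, 249.8 and 291.1 for mimic replicates 1 to 6, and 241.9, 242.2, 201.1 and 212.6 for scrambled replicates 1 to 4). It ranks probes as the scanner signal does (Spearman correlation 0.9987 or more) and leaves 57.0% to 63.0% of the values empty by a rule that stays unknown.

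Per the headers, mimic replicates 1 and 4, 2 and 5, and 3 and 6, and scrambled replicates 1 and 3, and 2 and 4, share an array position. Such files share 21 to 75 spots marked as non-uniform, and the 40 other pairs share 0. The labels describe independent transfections for each replicate; the files show 2 scans per position, so these were averaged. The deviations of same-numbered samples of the groups had correlations of 0.38, -0.04, -0.35 and -0.11. Mimic replicate 3 came from scan 1 and scrambled replicate 3 from scan 2, so these values mix scan with number. They cannot exclude a pairing of the arrays, and the main analysis used none.

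From log2 processed signals, without control spots and spots marked as outliers, the 75th percentile was subtracted, taken over the 12909 probes that every file had well above background. Probes above background in at least 4 of 10 files were kept (16775 of 55681), and a gene was represented by its brightest probe. All 28 genes' accessions matched the same symbol in RefSeq. The 2 groups were tested in limma 3.58.1 under R 4.3.3 (lmFit, eBayes; 3 residual and 2.92 prior degrees of freedom), adjusted by Benjamini-Hochberg over 13128 genes, with a threshold of 0.05. The fit was also run on simulated data with known changes and the same spread in both groups. That run does not cover the wider gap between the scrambled arrays. The number of arrays limits the precision.

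The genes and lists were chosen with earlier results of these data known, so no list was given a test. Named with values on each array are genes past the threshold, the 10 with the largest differences and Srebf1, Srebf2, Scap, Insig1 and Insig2. Of each related list, the gene with the largest difference is named. Hmgcs1, Mvk, Idi1, Fdps, Sqle and Tm7sf2 were added to these after their values were seen. Pathway genes outside these lists are not analysed here. Alternatives were the background correction, scaling, dim-probe filter, value table, treatment of scans, moderation, choice of probe and leaving out arrays or files.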

Additional observations from a re-analysis of the deposited data

How the results depend on the processing

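The count of all genes called (671) was 17 with no filter on dim probes, which tests 34518 genes, 4509 with the 10 files as separate arrays, 1457 with scan as a fixed and position as a random block, and 47 to 4339 when an array or file was left out. With the 10 files as separate arrays and the replicate number as a block (replicate block), it was 1947. Lower calls among the sterol genes (1 in the main analysis) were 0 with no filter, 12 with 10 separate files, 7 with the replicate block (Acat2, Fdft1, Insig1, Lss, Mvd, Srebf1 and Srebf2), 2 with the scan block, 2 in the first scan, and 0 to 9 with an array or file left out. Higher calls (0) were 1 with the percentile over all probes, 2 with 10 separate files, 1 with the replicate block and 0 to 2 with an array or file left out. Fits on 10 files count each array 2 times, which enlarges their counts of calls. The median of the sterol genes (-0.39) was -0.25 with normexp, -0.27 with quantile normalization, -0.23 with the percentile over all probes, -0.057 with only probes above background in all files, -0.27 in the deposited value table, and -0.43 to -0.22 with an array or file left out. Genes near 0 changed sign. With the percentile over all probes, Hmgcs1 was 0.14, Pmvk 0.091, Ggps1 0.073, Msmo1 0.11 and Scap 0.12. With quantile normalization Ggps1 was 0.015, and with normexp Msmo1 was 0.084 and Hsd17b7 -0.0017. In the second scan Hmgcs1 was 0.038, Msmo1 0.0044 and Hsd17b7 -0.040, in the first scan Sqle was -0.0032, and with the replicate block Sqle was -0.051. With all probes of a gene averaged, Hsd17b7 was -0.077 and Mbtps1 -0.21. Leaving out an array or file gave ranges of -0.079 to 0.057 for Hmgcs1, -0.30 to 0.13 for Ggps1, -0.059 to 0.079 for Sqle, -0.34 to 0.24 for Msmo1, -0.070 to 0.26 for Hsd17b7, -0.18 to 0.41 for Sc5d, -0.091 to 0.021 for Scap, -0.0066 to 0.34 for Mbtps1, -0.84 to 0.016 for Stard4 and -0.72 to 0.16 for Npc1. The cause of these changes was not tested. The other 16 genes tested kept their sign in every alternative that gave them a value. The number of arrays, with 2 scrambled arrays that stood apart, limits the precision, and the 9 sterol genes above background in 4 to 9 files have sizes that rest partly on background signal.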
